A study of Mus musculus with 4 samples.

Results

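Cd28, Icos, Cd80, Cd86, Cd83, Cd69, Tfrc and Cd38 encode surface proteins of T-cell costimulation and activation, and they are described here in activated CD4+ T cells with and without the transcription factor IRF4. The 8 genes were taken by name: each array probe's RefSeq accession was matched to a gene symbol, and every probe that matched one of the 8 symbols was used. This gave 13 probes. All 8 genes were among the 20505 genes or unnamed transcripts tested, of 45526 measured. The RNA came from spleen cells of male C57BL/6 mice, either wildtype or Irf4-/-, with 2 arrays of each genotype. In both genotypes naive CD4+ T cells had been sorted, stimulated in wells with an antibody to CD3e and an equal number of mitomycin C-treated antigen-presenting cells of the same strain, and sorted again as living CD4+ cells on day 2. The labels say that each genotype was studied in 2 independent experiments, without saying which animals or how many went into each, and no unstimulated sample was part of the 4 arrays. A treatment note in the labels names shorter cultures than the sample titles; the titles' day 2 is used here.

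A naive T cell needs a second signal beside the T-cell receptor, and CD28 gives it when it binds CD80 (B7-1) or CD86 (B7-2) on an antigen-presenting cell. ICOS, a relative of CD28, is made after activation and binds another B7 protein, ICOSL. CD80, CD86 and CD83 are best known from B cells and dendritic cells, and activated T cells can carry them too. CD83 slows the removal of CD86 and class II major histocompatibility proteins from the cell surface by the ubiquitin ligase MARCH1. CD69 appears early after stimulation and holds cells in lymphoid tissue by pulling the receptor S1PR1 off the surface. Tfrc encodes the transferrin receptor CD71, which brings iron into dividing cells, and CD38 is an enzyme that consumes NAD outside the cell. IRF4 is itself induced by T-cell receptor signals.

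Signals are given as levels, the log2 of an array's processed signal after subtracting the log2 of the 75th percentile of that array, so a level of 0 marks that percentile. Levels of different genes come from different probes and are not set against each other. A difference is the knockout mean minus the wild-type mean on this log2 scale, and p-values are from limma with Benjamini-Hochberg adjustment over all genes tested and a threshold of 0.05. All 4 arrays were on 1 slide, and each had 25677 to 28725 of its 56605 probes well above background. The arrays numbered 1 lay in slide row 1 and those numbered 2 in row 2, so each row held both genotypes, and the differences within each row are given below. Slide columns did not hold both genotypes, column 1 being wild type and columns 2 and 3 knockout, so column and genotype cannot be told apart. Irf4 itself had levels of 5.03 and 4.74 on the wild-type arrays and 4.23 and 4.04 on the knockout arrays, a difference of -0.75 ± 0.20 (SE) with an adjusted p of 0.231, and it was well above background on all 4 arrays. Its second probe differed by -0.37. The sources used here do not say whether the probes lie in what was deleted, so they do not check the genotype. Markers of T cells were measured: 9 of 9 with a probe, Cd4 and the Cd3 genes among them, were well above background on every array. The CD8 T-cell marker Cd8b1 was also well above background on all 4 arrays, at levels of 3.12 and 3.21 in the wild type and 2.23 and 2.14 in the knockout. Cd8a was so on 2 arrays. How pure the sorted CD4+ cells were was not tested.

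Of the 8 genes, 0 passed the adjusted threshold in limma's test, against 0.736% of all genes tested (0.493% higher and 0.244% lower). At an unadjusted p under 0.05 there were 5 of 8, against 11.4% of all genes tested. Of these 5, Cd83, Cd86, Cd38 and Cd69 were higher in the knockout, as 6.35% of all genes were at that threshold, and Cd28 was lower, as 5.01% were. For 4 of the 8 genes both knockout arrays lay above both wild-type arrays, which held for 17.9% of all genes tested. For 3 of the 8 the knockout arrays were the lower pair, which held for 21.3%, and Cd80 overlapped. Either form of separation held for 39.2% of all genes tested. The median absolute difference of the 8 genes was 0.53 and that of all genes tested 0.18. The interval from the 5th to the 95th percentile of all differences ran from -0.64 to 0.80. Cd83 and Cd86 lay beyond it and the other 6 within it. With 2 arrays a genotype, the residual degrees of freedom per gene were 2. The 8 genes and the lists below were chosen with earlier results of these data known. Their shares beside those of all genes are therefore description only.

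**Figure D1:**
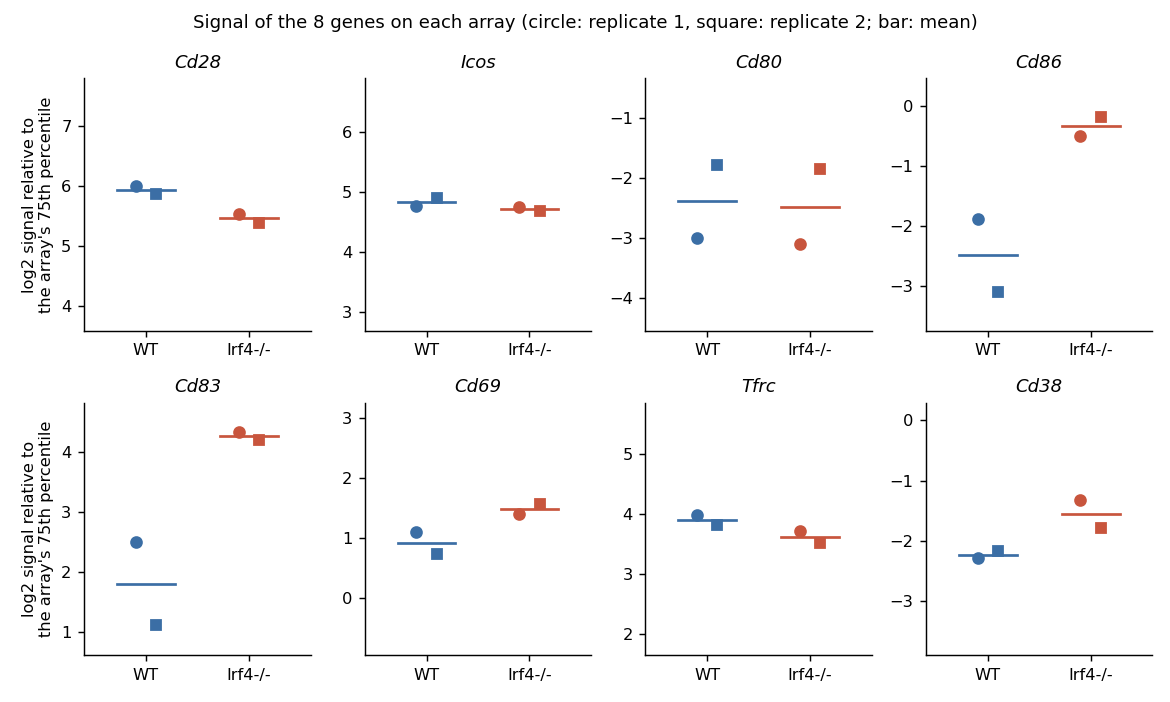
Level of each of the 8 genes on each of the 4 arrays, 1 panel a gene, in log2 units above or below the array's 75th percentile; circles are replicate 1 (slide row 1), squares replicate 2 (row 2) and bars the mean of a genotype. The knockout arrays of Cd83 lie at 4.33 and 4.21, above wild-type arrays at 2.50 and 1.12, while Cd80 separates by slide row and not by genotype.

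Cd28, the receptor of the costimulatory signal, had levels of 6.00 and 5.87 on the wild-type arrays and 5.54 and 5.38 on the knockout arrays. Both knockout arrays were below both wild-type arrays, by -0.46 in row 1 and -0.49 in row 2. The difference was -0.48 ± 0.18 (SE, n = 2 arrays a genotype), a 1.39-fold lower signal, with a 95% interval from -0.93 to -0.02. It did not pass the test (adjusted p = 0.407 in limma). In size it ranked 3585th of the 20505 differences.

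Icos had levels of 4.77 and 4.89 in the wild type and 4.75 and 4.69 in the knockout. The knockout arrays were again the lower ones, but by only -0.01 in row 1 and -0.20 in row 2. The difference of -0.11 ± 0.17 (SE, n = 2 arrays a genotype) did not pass the test (adjusted p = 0.941 in limma). Its 95% interval from -0.54 to 0.33 holds both a lower and a higher signal in the knockout.

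Of 11 other receptors and ligands of the CD28 and B7 families, with their close partners, 8 were tested and 1 passed the test. Cd160, an immunoglobulin-superfamily receptor that binds HVEM, rose 10.7-fold in the knockout, from levels of -2.33 and -3.22 to 0.47 and 0.83 (difference 3.42 ± 0.35 SE, adjusted p = 0.0395 in limma). The call was lost with slide row as a replicate block (adjusted p = 0.13) and without either wild-type array (0.0929 and 0.105). Over 14 alternatives its adjusted p ran from 6.25e-18 to 0.442. The wild-type signal of Cd160 was dim, at 67.3 and 32.8 before scaling, and its difference over these alternatives ran from 2.0 (with normexp) to 3.87. Pdcd1, the inhibitory receptor PD-1, had levels of 2.92 and 2.40 in the wild type and 4.45 and 4.42 in the knockout, a difference of 1.77 (adjusted p = 0.0599). Btla, an inhibitory receptor that also binds HVEM, differed by -1.30 (adjusted p = 0.0666). Ctla4, the inhibitory receptor that competes with CD28 for CD80 and CD86, differed by -0.93 (adjusted p = 0.263), and its knockout levels of 1.66 and 1.92 lay below wild-type levels of 2.43 and 3.02. Pdcd1lg2, a ligand of PD-1, differed by 0.46 with overlapping arrays. Icosl, the ligand of ICOS, and Cd276 and Vtcn1, both further B7 proteins, were not well above background on any array. The median difference of the 8 genes tested was 0.40, beside -0.02 for all genes.

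Genes that carry the signal of CD28 and ICOS inside the cell did not pass the test in any case: 0 of 25 in limma. Of these, 7 had a higher and 18 a lower mean in the knockout, with a median difference of -0.12. The knockout arrays were the lower pair for 12 of them, against 21.3% of all genes tested, and the higher pair for 4. Malt1, the protease of the complex that links CD28 and the T-cell receptor to NF-kappaB, differed by -0.86 (adjusted p = 0.124), at -0.86 in row 1 and -0.87 in row 2. Sos1, an exchange factor for Ras, differed by -0.51 (adjusted p = 0.324). Zc3h12a, which encodes the RNA-degrading protein Regnase-1, differed by -0.37 with overlapping arrays.

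Cd80 and Cd86 encode the alternative ligands of CD28, and their arrays sorted in different ways. Cd80 had levels of -3.00 and -1.78 in the wild type and -3.11 and -1.86 in the knockout. The 2 arrays of row 2 were the higher ones in both genotypes, by 1.22 in the wild type and 1.25 in the knockout. Gaps at least this large between arrays of a genotype were found for 2.54% and 2.88% of all genes tested. Within the rows the genotypes differed by -0.11 and -0.09. The difference of -0.10 ± 0.58 (SE, n = 2 arrays a genotype, adjusted p = 0.992 in limma) has a 95% interval from -1.60 to 1.39. The tested probe was dim, with a signal before scaling of 42.2 and 89.4 in the wild type and 34.3 and 83.5 in the knockout. The other Cd80 probes gave -0.14 and -0.33, the former well above background on 1 array of each genotype. The former did not split by row, at -4.19 and -3.90 in the wild type and -4.10 and -4.26 in the knockout. The latter was higher in row 2 in both genotypes, at -4.26 and -3.36 against -4.45 and -3.83.

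Cd80 is one of 3 genes of the 8, with Cd38 and Tfrc, for which the RefSeq table used here holds a promoter window, of 250 bases before to 50 after a transcription start. The windows printed are those of Cd80, whose tested probe split by slide row, and of Cd38, whose arrays separated by genotype as those of Tfrc did. Both are from build GRCm38.p6 on the plus strand, at chr16:38458683-38458982 for Cd80 and chr5:43868559-43868858 for Cd38, and capitals mark the match to a searched motif.
Cd80: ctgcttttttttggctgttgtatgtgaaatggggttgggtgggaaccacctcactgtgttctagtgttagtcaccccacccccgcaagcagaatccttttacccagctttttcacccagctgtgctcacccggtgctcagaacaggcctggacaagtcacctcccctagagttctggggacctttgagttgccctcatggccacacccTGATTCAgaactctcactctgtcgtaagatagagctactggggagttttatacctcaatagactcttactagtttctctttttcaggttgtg
Cd38: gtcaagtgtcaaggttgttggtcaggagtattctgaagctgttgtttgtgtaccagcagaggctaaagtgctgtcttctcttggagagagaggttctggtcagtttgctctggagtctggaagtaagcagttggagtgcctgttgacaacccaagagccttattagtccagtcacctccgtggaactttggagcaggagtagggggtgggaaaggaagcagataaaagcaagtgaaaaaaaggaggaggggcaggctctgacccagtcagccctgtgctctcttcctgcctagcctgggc
The letters searched on both strands were TGANTCA (AP-1), GAAANNGAA (the core of the interferon response element), GGGNNTTCC (a partial NF-kappaB site), TGGAAA (the NFAT core) and CACGTG (an E-box). The window of Cd80 held 1 match, TGATTCA, which reads as AP-1 on both strands. The Cd38 window and both overlapping Tfrc windows held none. Over 32851 windows of 300 bases, TGANTCA was found in 7.81%, GAAANNGAA in 8.56%, GGGNNTTCC in 5.82%, TGGAAA in 21.4% and CACGTG in 7.15%. These are matches of letters only, and no link between them and the levels on the arrays was tested. Cd28, Icos, Cd86, Cd83 and Cd69 had no entry.

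Cd86 had levels of -1.87 and -3.09 in the wild type and -0.49 and -0.18 in the knockout. Both knockout arrays were above both wild-type arrays. The difference was 2.15 ± 0.43 (SE, n = 2 arrays a genotype), a 4.43-fold higher signal, with a 95% interval from 1.04 to 3.26. It did not pass the test (adjusted p = 0.138 in limma), and in size it ranked 260th of the 20505 differences. The 2 rows gave unequal differences, 1.39 (2.61-fold) in row 1 and 2.91 (7.52-fold) in row 2. Array 2 was lower than array 1 by 1.22 in the wild type, a gap reached by 2.57% of all genes tested, and higher by 0.31 in the knockout. The signal was dim: before scaling it was 92.2 and 35.9 in the wild type and 212 and 268 in the knockout. The 2 other Cd86 probes differed by 2.86 and 1.84, and neither was well above background on wild-type array 2.

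Cd83 had levels of 2.50 and 1.12 in the wild type and 4.33 and 4.21 in the knockout. Its difference was the largest of the 8, at 2.46 ± 0.47 (SE, n = 2 arrays a genotype), a 5.50-fold higher signal with a 95% interval from 1.25 to 3.67. It did not pass the test (adjusted p = 0.122 in limma), and it ranked 181st in size. The rows gave 1.83 (3.55-fold) and 3.09 (8.50-fold). As for Cd86, the knockout arrays lay close together and the wild-type arrays apart, by 1.38, a gap reached by 1.75% of all genes tested. A difference of at least 2 upward, as for both Cd86 and Cd83, was found in 1.06% of all genes.

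Leaving out a wild-type array moved the differences of these 2 genes in both directions, and some changes of processing moved 1 or both past the threshold. Without wild-type array 2 the Cd83 difference was 1.77 and the Cd86 difference 1.54, and without wild-type array 1 they were 3.15 and 2.76. Cd83 passed under normexp background correction (2.34, adjusted p = 0.0008) and under scaling to the median (2.35, adjusted p = 5.61e-09). Cd86 passed under both of these (1.33, adjusted p = 0.00129, and 2.04, adjusted p = 8.52e-07) and with a trended, robust variance model (2.15, adjusted p = 0.022). Under scaling to the median limma used 1 variance for all genes, so the spread between a gene's own arrays did not enter its p-value. Over all 14 alternatives the adjusted p ran up to 0.623 for Cd83 and 0.674 for Cd86, and all 14 gave a higher signal in the knockout. Under these 3 settings 2.25%, 2.90% and 2.37% of all genes tested were called higher.

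**Figure D2:**
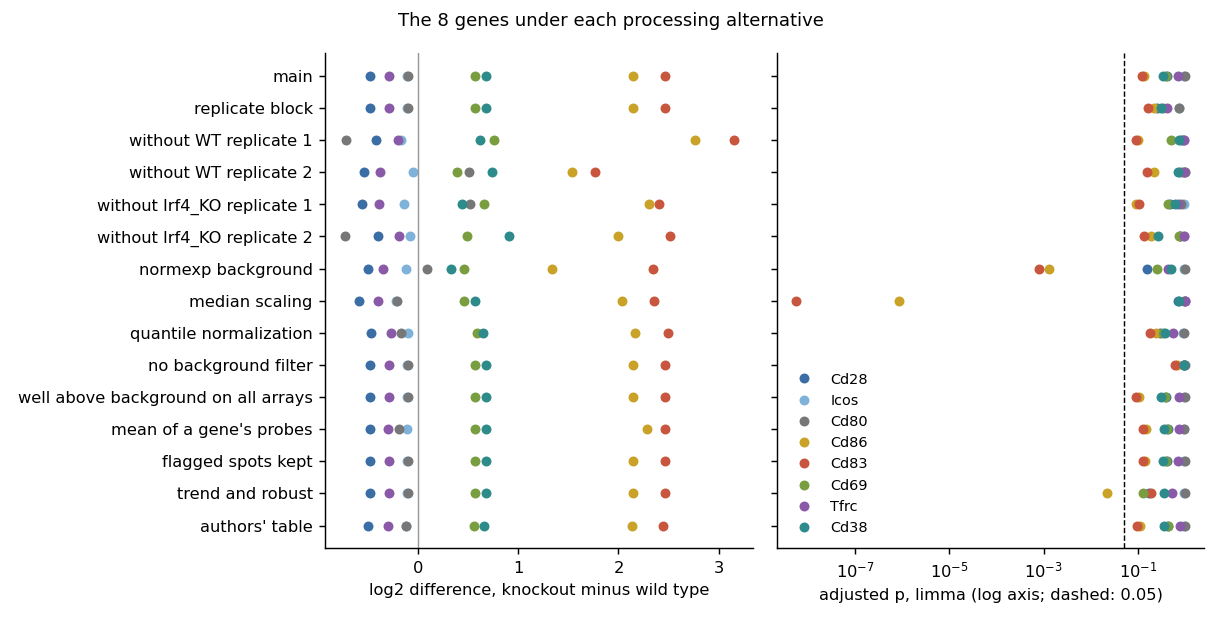
Difference of each of the 8 genes, knockout minus wild type in log2 units (left), and its adjusted p on a log axis (right), as reported (labelled main) and under 14 alternative ways of processing; the dashed line is at 0.05. Cd86 and Cd83 stay between 1.33 and 3.15, Cd80 runs from -0.73 to 0.52, and the others keep their sign.

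Genes of antigen presentation were set beside Cd86 and Cd83, since CD83 acts on the turnover of CD86 and class II proteins. Of 9 genes listed, 9 were tested and 0 passed in limma, with 4 higher and 5 lower means and a median difference of -0.18. H2-Ab1, the beta chain of the class II protein I-A, had levels of 4.47 and 4.97 in the wild type and 3.64 and 2.91 in the knockout, a difference of -1.44 (adjusted p = 0.174). H2-Aa, the alpha chain of I-A, went the other way from H2-Ab1, by 1.43 with overlapping arrays, and was well above background on 3 arrays. H2-Eb1, the beta chain of I-E, differed by 1.31 with overlapping arrays (adjusted p = 0.555). Cd74 and Ciita, the others with a higher mean, differed by 0.56 and 0.50, also with overlapping arrays. H2-Aa, Cd74 and Ciita are named after their values were seen. H2-DMa and H2-DMb1, which load peptides onto class II proteins, differed by -0.78 and -0.77 (adjusted p = 0.308 and 0.368).

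Because Cd80, Cd86 and Cd83 are also made by the antigen-presenting cells of the culture, the markers of those cells were read on the same arrays. In sorted bulk RNA, fewer cells of a type and less RNA per cell cannot be told apart. Of 16 B-cell markers with a probe, 14 were tested, 11 with a higher and 3 with a lower mean in the knockout, at a median difference of 0.96. The knockout arrays were the higher pair for 6 of the 14, against 17.9% of all genes tested, and the lower pair for 0. The summed signal of the list, in units of an array's 75th percentile, was 6.49 and 3.92 in the wild type and 18.7 and 12.9 in the knockout, so it ran with genotype in the same direction as Cd86 and Cd83. Without Pou2af1, the brightest of the list, it was 4.69 and 2.96 against 10.5 and 6.44. The part of these markers in the Cd86 and Cd83 results was not tested. Fcmr, the receptor for IgM, was the 1 B-cell marker to pass, 3.18-fold higher (adjusted p = 0.0395 in limma, 0.108 with the replicate block, 0.129 and 0.178 without either wild-type array, and 0.000188 to 0.524 over 14 alternatives). Pou2af1, a coactivator of octamer-binding factors, differed by 2.46 and Cd72, a B-cell receptor for semaphorin, by 1.87 (adjusted p = 0.0684 and 0.0981). Blnk, an adaptor of B-cell receptor signalling, and Ms4a1, which encodes CD20, differed by 1.19 and 1.13 with overlapping arrays. Ebf1, a defining factor of B cells, was not well above background on any array.

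The B-cell markers were not alike across the 4 arrays. Pou2af1 had levels of 0.84 and -0.06 in the wild type and 3.03 and 2.68 in the knockout, and Fcmr -0.14 and -0.27 against 1.43 and 1.49. As for Cd83 and Cd86, both knockout arrays of these 2 markers were high and lay close together. Cd79b, part of the B-cell receptor, and Ms4a1 overlapped between the genotypes. From knockout array 1 to array 2 Cd79b went from 1.08 to -0.53 and Ms4a1 from -0.30 to -2.16, while Cd86 went from -0.49 to -0.18 and Cd83 from 4.33 to 4.21. In the wild type both were lower on array 2, as Cd86 and Cd83 were, with levels of 0.27 and -1.09 for Cd79b and -1.41 and -3.31 for Ms4a1. Of the 14 B-cell markers tested, 11 were lower on array 2 in the wild type and 12 in the knockout. These 4 markers were picked after the values were seen.

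Of 18 myeloid and dendritic-cell markers, 9 were tested and 0 passed in limma, with 7 higher and 2 lower means and a median difference of 0.16. Of the 18, 8 were well above background on all 4 arrays and 6 on none. Siglech, a lectin of plasmacytoid dendritic cells, had levels of 5.77 and 6.13 in the wild type and 5.79 and 6.17 in the knockout, on the brighter of its 2 probes. Whether this signal came from dendritic cells was not tested. Itgam, an integrin chain of myeloid cells, had levels of 2.81 and 3.20 against 2.64 and 2.76, and Csf1r, a receptor of the macrophage lineage, 2.09 and 1.55 against 2.10 and 1.56. Those on none were Lyz2, Itgax, Adgre1, Clec9a, Clec10a and Spi1, also genes of macrophages and dendritic cells. The summed signal was 67.5 and 83.5 in the wild type and 68.5 and 84.5 in the knockout, most of it Siglech, and without Siglech it was 12.9 and 13.5 against 13.1 and 12.7. Siglech, Itgam and Csf1r are named after their values were seen. Tyrobp, a signalling adaptor of myeloid and NK cells, differed by 1.87 (adjusted p = 0.065). Mpeg1, a pore-forming protein of phagocytes, differed by 1.25, Fcer1g, the shared Fc-receptor gamma chain, by 0.90 and Cd68, a lysosomal protein, by 0.60. Of 6 NK-cell markers 2 were tested and 0 passed in limma: Gzma, a cytotoxic protease, differed by -2.19 and Eomes, a T-box factor, by 1.44, and the summed signal was 18.7 and 54.3 in the wild type and 13.8 and 9.88 in the knockout. Most of that sum was Gzma, without which it was 2.69 and 1.46 against 6.92 and 4.01. Of the CD8 markers only Cd8b1 was tested, with a difference of -0.98 (adjusted p = 0.0979). The summed T-cell signal lay between 1230 and 1370 on the 4 arrays, with 0 of 9 markers past the test and a median difference of -0.02. Of 4 erythroid markers tested 0 passed in limma, and the list summed to at most 1.87 on any array. Hba-a1, Slc4a1 and Klf1 differed by 0.95, -0.40 and 0.06.

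Of 11 tested genes of the interferon response, 1 passed the test and 10 did not. All 11 had a higher mean in the knockout, with the knockout arrays as the higher pair, which held for 17.9% of all genes tested, and the median difference was 2.12. The difference was larger in row 2 than in row 1 for 9 of the 11, and smaller for Oas1a and Usp18. The summed signal was 84.7 and 106 in the wild type and 149 and 286 in the knockout. Oasl2, an interferon-induced relative of oligoadenylate synthetase, passed, and since it was dim in the wild type its signal was at least 43.8-fold higher (adjusted p = 0.0318 in limma, 0.0967 with the replicate block, 0.103 and 0.117 without either wild-type array). Over 13 alternatives its adjusted p ran from 1.13e-69 to 0.406. Rtp4, Oas2, Oas1a and Ifit3, all induced by interferon, differed by 4.81, 3.51, 3.10 and 2.75 without passing the test (adjusted p = 0.0839, 0.26, 0.0561 and 0.26). The part of this response in the values of the 8 genes was not tested.

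Cd69 had levels of 1.09 and 0.73 in the wild type and 1.40 and 1.57 in the knockout. Both knockout arrays were above both wild-type arrays, by 0.31 in row 1 and 0.84 in row 2. The difference of 0.57 ± 0.21 (SE, n = 2 arrays a genotype), 1.49-fold with a 95% interval on the log2 scale from 0.04 to 1.11, did not pass the test (adjusted p = 0.395 in limma). Of 9 tested genes of lymphocyte egress, the process CD69 blocks, 0 passed in limma, with 6 higher and 3 lower means and a median difference of 0.17. Klf2, the factor that turns on S1pr1 in resting cells, differed by -1.23 (adjusted p = 0.227), with levels of 4.92 and 4.81 in the wild type and 3.21 and 4.07 in the knockout. Ccr7, the receptor that guides T cells within lymph nodes, differed by 0.86 (adjusted p = 0.138). Sgpl1, the lyase that degrades sphingosine 1-phosphate, and S1pr4, a receptor for it, differed by 0.43 and -0.27 (adjusted p = 0.53 and 0.787). Cd69 belongs to the cluster of lectin-like receptors known as the NK gene complex. Of 8 genes listed from it, 5 were tested and 0 passed in limma. Klrd1, which encodes CD94, differed by 1.87 (adjusted p = 0.157) and Klrk1, which encodes NKG2D, by -0.75 (adjusted p = 0.302). Clec2i and Clec2g, ligands of NK receptors, differed by 0.30 and 0.18 with overlapping arrays.

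Other markers of T-cell activation were read beside Cd69. Of 14 listed, 13 were tested, 7 with a higher and 6 with a lower mean in the knockout, and 1 passed. Tnfrsf9, the costimulatory receptor 4-1BB, rose 3.75-fold, from levels of 4.20 and 4.59 to 6.19 and 6.42 (difference 1.91 ± 0.22 SE, adjusted p = 0.0487 in limma). It lost the call with the replicate block (adjusted p = 0.0967) and without wild-type array 1, wild-type array 2 or knockout array 2 (adjusted p = 0.149, 0.139 and 0.0654), and over 14 alternatives ran from 2.71e-05 to 0.524. Cd5 and Cd6, receptors that tune T-cell receptor signals, differed by 0.86 and 0.75 (adjusted p = 0.13 and 0.173). Cd44, a marker of antigen-experienced T cells, differed by 0.76 (adjusted p = 0.166). Il2rb, the beta chain of the interleukin-2 receptor, differed by -0.83 (adjusted p = 0.168).

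Tfrc had levels of 3.98 and 3.81 in the wild type and 3.71 and 3.51 in the knockout. Both knockout arrays were the lower ones, by -0.27 and -0.30 within the rows. The difference of -0.28 ± 0.18 (SE, n = 2 arrays a genotype; 95% interval -0.76 to 0.19) did not pass the test (adjusted p = 0.725 in limma). A second Tfrc probe, at 2.18 and 1.88 against 1.79 and 1.65, gave -0.31. Of 17 tested genes of iron uptake and handling, 0 passed in limma, with 6 higher and 11 lower means and a median difference of -0.08. Hmox1, the heme-degrading enzyme, differed by -1.46 (adjusted p = 0.0764) with both knockout arrays below. Slc11a2, the iron transporter that works with the transferrin receptor, and Slc39a14, another importer, differed by -0.52 and -0.43 (adjusted p = 0.361 and 0.679). Fth1, the heavy chain of ferritin, differed by 0.43 (adjusted p = 0.561). Genes of the dividing cell, read beside Tfrc, had 0 of 10 past the test in limma, 9 of them with a lower mean, and a median difference of -0.18. Mki67, the proliferation antigen Ki-67, differed by -0.42, Mcm2 and Mcm5, parts of the replicative helicase, by -0.28 and -0.22 and Aurkb, a mitotic kinase, by -0.21.

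Cd38 had levels of -2.29 and -2.18 in the wild type and -1.32 and -1.79 in the knockout. Both knockout arrays were above both wild-type arrays, by 0.97 in row 1 and 0.39 in row 2. The difference of 0.68 ± 0.22 (SE, n = 2 arrays a genotype; 95% interval 0.10 to 1.26), 1.60-fold, did not pass the test (adjusted p = 0.341 in limma). The signal of Cd38 was dim: before scaling it was 69.0 and 67.7 in the wild type and 119 and 87.9 in the knockout. Over 14 alternatives its difference ran from 0.33 (with normexp) to 0.91. Among 15 tested genes of NAD and nucleotide metabolism, 8 had a higher and 7 a lower mean in the knockout, with a median difference of 0.13, and 1 passed. Nt5e, the ectoenzyme CD73, which makes adenosine outside the cell, rose 3.76-fold, from levels of -2.20 and -2.42 to -0.23 and -0.57 (adjusted p = 0.0443 in limma). It lost the call with the replicate block (adjusted p = 0.0967) and without either wild-type array (adjusted p = 0.126 and 0.181), and over 14 alternatives ran from 2.6e-05 to 0.51. The wild-type signal of Nt5e was dim, at 73.5 and 57.4 before scaling, and its difference over these alternatives ran from 1.05 (with normexp) to 2.08. Nmrk1, a nicotinamide riboside kinase, and P2rx7, an ATP-gated channel, differed by 1.09 and 0.98 (adjusted p = 0.406 and 0.38). Enpp1, an ectoenzyme that cleaves nucleotides, differed by -0.55 (adjusted p = 0.296) and Naprt, an enzyme of NAD synthesis, by 0.41 (adjusted p = 0.723). Bst1, the relative of Cd38 beside it on the chromosome, was not well above background on any array.

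**Figure D3:**
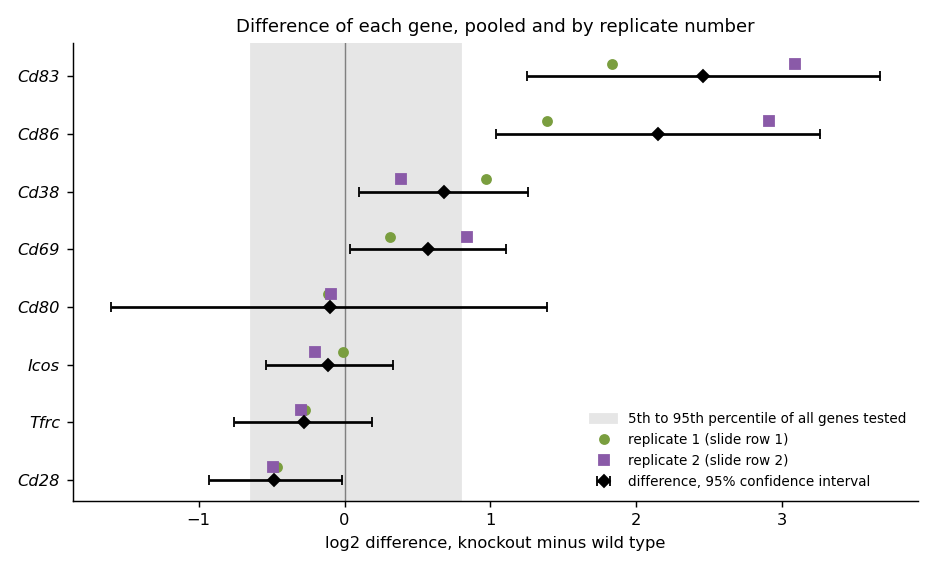
Difference of each of the 8 genes, knockout minus wild type in log2 units, with its 95% interval from limma (diamonds and bars) and the values within slide row 1 (circles) and row 2 (squares); the band runs from the 5th to the 95th percentile of all genes tested. The intervals of Cd83 and Cd86 start at 1.25 and 1.04, and those of Icos, Tfrc and Cd80 include 0.

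**Figure D4:**
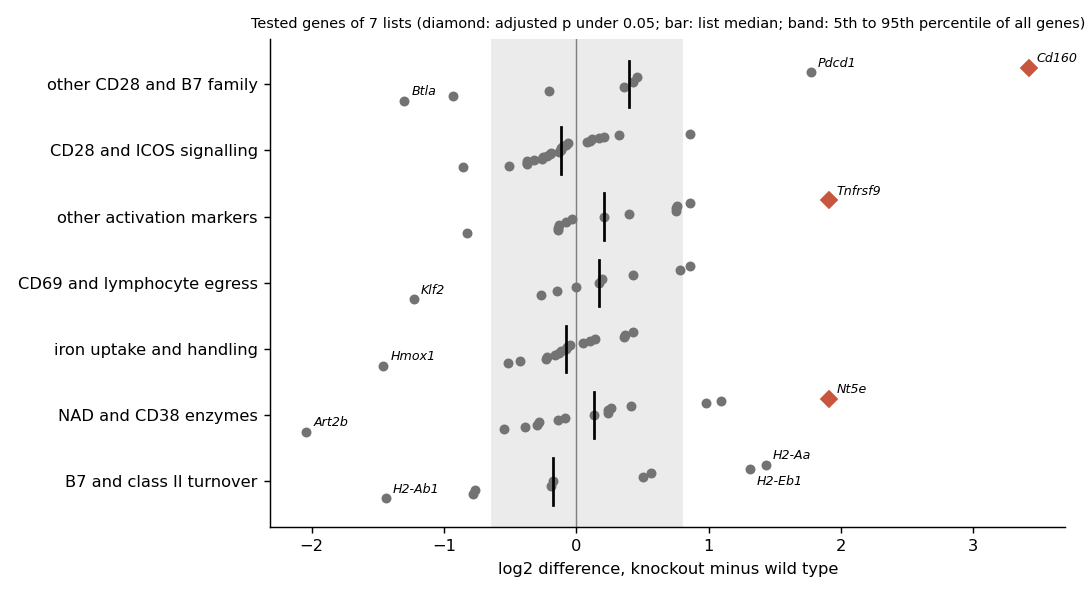
Differences of the tested genes of 7 lists, knockout minus wild type in log2 units, 1 point a gene, with a bar at each list's median and a band from the 5th to the 95th percentile of all genes tested; diamonds passed an adjusted p of 0.05. Cd160, Tnfrsf9 and Nt5e are the diamonds, and the genes of CD28 and ICOS signalling have a median of -0.12.

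The genes whose profiles over the 4 arrays were most like each of the 8 were found among 12028 named genes well above background on all arrays, by the distance between levels centred on each gene's mean, in log2 units. Cd83 and Cd86 shared their 2 nearest genes. Tnfsf4, which encodes the costimulatory ligand OX40L, lay at 0.139 from Cd83 and 0.407 from Cd86, and Gm14718 at 0.265 and 0.348. Tnfsf4 had levels of -1.69 and -2.90 in the wild type and 0.20 and 0.19 in the knockout, a difference of 2.49 that did not pass the test (adjusted p = 0.0939 in limma). Within a distance of 0.3, Cd83 had 2 genes and Cd86 had 0, whereas Icos had 4261, Tfrc 3567 and Cd28 1329. The profiles of the latter 3 were therefore close to those of many genes. Psme4, a proteasome activator, and Ccne1, the cell-cycle protein cyclin E1, lay at 0.011 and 0.017 from Cd28. The nearest to Icos were Fcho1 and Trp63 (0.026 and 0.027) and to Tfrc Cbx6 and Sult2b1 (0.020 and 0.024). Cd69 had 294 genes within 0.3, with Ublcp1 and Mettl8 nearest (0.034 and 0.077), and Cd38 had 84, with Dusp5 and Ddc nearest (0.075 and 0.088). Cd80 had 22, of which 2010016I18Rik (0.058) and Lncpint (0.127) were nearest and showed the same split by row: 2010016I18Rik had levels of -0.38 and 0.85 in the wild type and -0.50 and 0.82 in the knockout.

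The genes beside the 8 on their chromosomes were also read, as a description added after the values of the 8 were seen. In RefSeq order, 2 protein-coding genes on each side gave 29 further genes, of which 18 were tested and 1 passed. Cd28, Ctla4 and Icos follow each other on chromosome 1, with differences of -0.48, -0.93 and -0.11. Stfa3, a stefin that inhibits cysteine proteases and lies near Cd86 on chromosome 16, rose in the knockout, from levels of -3.70 and -3.90 to 1.42 and 0.05 (difference 4.54 ± 0.47 SE, adjusted p = 0.0405 in limma). It belongs to a family of near-identical genes, so its probe may read relatives, and it was well above background on 1 of the 2 wild-type arrays. Its call was lost with the replicate block (adjusted p = 0.108) and without either wild-type array (adjusted p = 0.115 and 0.153), in a range from 3.42e-32 to 0.419 over 13 alternatives. Ildr1, the next gene on the other side of Cd86, was well above background in the knockout only and was at least 2.42-fold higher (adjusted p = 0.117). Slc15a2, a peptide transporter one place further on that side, differed the other way, by -2.53 (adjusted p = 0.375), with levels of -3.48 and -1.81 in the wild type and -4.10 and -6.26 in the knockout, where 1 array was well above background. Beside Cd80, Pla1a, a phospholipase, differed by 1.49 (adjusted p = 0.176). Beside Cd83, Mcur1, Jarid2 and Dtnbp1 differed by 0.45, -0.38 and 0.40. Beside Cd69, Clec2d, an inhibitory lectin ligand, was split by slide row as Cd80 was, at 1.68 and 3.11 in the wild type and 1.83 and 3.18 in the knockout.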

How the data were processed

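Gene expression was measured on single-colour Agilent arrays, 2 a genotype. The deposited scanner files hold an intensity per spot, the processed signal, made with Feature Extraction 11.0.1.1 per the file headers (9.1 per the submitters' processing notes). Their log2 was taken, scaled to the 75th percentile of non-control probes, and spots called outliers were left out. The authors' deposited table of log2 values, centred per gene (column medians -0.17, 0.10, -0.11 and 0.12), served as an alternative; it followed the centred scanner values with median offsets of at most 0.03. No genome build is named in the sources used here. Of 56605 probes, 32994 matched 22911 symbols through GRCm38.p6 accessions. A gene's brightest probe was tested with limma 3.58.1 (R 4.3.3) where well above background on both arrays of a genotype. A bound, "at least", sets the bright genotype's mean against the dim one's, taking on each dim array the higher of the probe's own signal and the lowest signal well above background. Normexp used the median signal and background, offset 50. The test was tried on simulated data. The numbers do not show which arrays pair; deviations of same-numbered arrays correlated at 0.35 across genes. The 8 genes and all lists were chosen with earlier results of these data known. Named were the 8, Irf4, list genes past the test, the 4 largest differences per list among genes above background on all arrays, and the 2 nearest profiles. Carmil2, Trac, Trbc1, Trbc2, Ighm, Hbb-bs, Ahsp and Mx1 matched no probe. The number of arrays limits the precision, and p-values measure the spread between these arrays. Some genes that this rule or the lists hold are not reported here.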

Additional observations from a re-analysis of the deposited data

How the results depend on the processing

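The count of all genes past the test, 151, was 0 with slide row as a replicate block and 0 when genes were tested without a background filter. At an unadjusted p under 0.05, limma called 3195 and 2099 genes there. The count was 5 after quantile normalization, 260 from the authors' table, 760 with normexp and 797 with a trended, robust variance model. Scaling to the median gave 1042 and moved the median difference of all genes from -0.02 to -0.13. Under that scaling limma used 1 variance for all genes, and the lowest adjusted p of Cd160, Tnfrsf9, Nt5e and Oasl2 came from it. Leaving out 1 array gave 0 to 487: 0 without wild-type array 1 or 2 (1864 and 1678 unadjusted) and 487 without knockout array 1. Of the 8 genes, 2 passed with normexp, 2 with median scaling, 1 with the trended, robust model and 0 otherwise. With the replicate block the adjusted p was 0.163 for Cd83 and 0.215 for Cd86. Cd83 passed at 2.34 and 2.35 and Cd86 at 1.33, 2.04 and 2.15 under the settings named in the results. Cd80 turned to 0.090 with normexp and ran from -0.73 to 0.52 when 1 array was left out, at 0.51 without wild-type array 2 and 0.52 without knockout array 1. The other 7 kept their sign under all 14 alternatives; the cause of the changed calls was not tested. Other named genes whose sign turned when 1 array was left out were Pdcd1lg2 (range -0.11 to 1.03), Zc3h12a (-0.80 to 0.056), Clec2g (-0.0015 to 0.37), Klf1 (-0.22 to 0.34), 2010016I18Rik (-0.73 to 0.59), Lncpint (-0.66 to 0.46), Timmdc1 (-0.13 to 0.31), Clec2e (-1.29 to 0.81), Clec2d (-0.60 to 0.82) and Tnk2 (-0.22 to 0.0021). Median scaling turned Klf1 (-0.049), Timmdc1 (-0.015) and Fbxl5 (-0.059), quantile normalization Klf1 (-0.013), normexp Lncpint (0.17) and Clec2e (0.011), and the mean of a gene's probes Klf1 (-0.094) and Trp63 (0.033). The signal of Cd86 on wild-type array 2 lay 0.98 above the lowest signal well above background on the log2 scale, which limits how closely its difference is known.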
